A study of Ovis aries with 23 samples.

Results

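The sheep pars tuberalis (PT) is the stalk-side part of the pituitary that reads melatonin and passes day length on to the hypothalamus, and 6 of the 25197 genes counted in it are described here. They are ACSL4 (ENSOARG00000017954), TNFRSF12A (ENSOARG00000000747), MARCH4 (ENSOARG00000019383), KLHL41 (ENSOARG00000003388), ZMYND15 (ENSOARG00000007364), and CXCL16 (ENSOARG00000007683). None of them is a clock gene. They were chosen because their levels in the samples of LP days 7 and 28 split by odd and even sample number, and each is set against CRY1, a clock gene that split in the same samples. The split is therefore described for these genes and not tested. Without overlap between odd and even numbers, in the same direction on both days, were 2.16% of all genes tested, the 6 genes among them by choice.

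PT tissue came from castrate male Scottish blackface sheep on short photoperiod (SP; 5 samples) or after 1, 7, or 28 days of long photoperiod (LP; 6 samples each). All 23 samples share this sex, breed, castration, and tissue, and differ by the labels only in photoperiod, days on LPs, and sample number. The labels attach no meaning to the number and give no hour of collection for any sample. The paper's methods say that the time points of sampling varied, and its main text gives no hour for these samples. They also do not say whether a sample is 1 animal, so the tests below measure the spread between these samples, which may be partly technical.

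The 6 genes encode proteins of unrelated kinds. ACSL4 is an acyl-CoA synthetase that prefers arachidonic acid and so prepares this fatty acid for storage in membrane lipids. TNFRSF12A is Fn14, the receptor for the cytokine TWEAK, and CXCL16 is a membrane-anchored chemokine that can be shed and binds the receptor CXCR6. MARCH4, now named MARCHF4, is a membrane-bound ubiquitin ligase that marks surface proteins for removal, and KLHL41 is a kelch-like adaptor of the cullin-3 ubiquitin ligase, best known from the sarcomeres of skeletal muscle. ZMYND15 is a zinc-finger protein known as a transcriptional repressor in male germ cells. CRY1, the reference gene, is a repressor of the circadian clock.

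Total counts per sample ran from 307952 to 4413929, with a median of 3332320. The shallowest sample was LP day 1 sample 4, where 3 counts, taken as the detection floor, equal 9.74 CPM (counts scaled to a common library size). That sample held 1 count of TNFRSF12A, 4 of ZMYND15, and 7 of MARCH4. LP day 1 samples 3 and 4 were also very alike, with a mean chi-square per gene of 1.15 between them, where 1 would be counting noise, against 1.81 to 44.5 in the other 54 pairs within groups. They were kept as separate samples, and some of the results that involve LP day 1 are also given with the pair summed. The 5 thyrotroph markers of the PT were counted in every sample, with a sum of 6727 to 15087 CPM, except that LP day 1 sample 4 held no count of MTNR1A, the melatonin receptor. However, the 6 pars distalis genes summed to between 34994 and 272700 CPM, so the tissue also held pars distalis RNA. In bulk tissue, fewer cells of a type and less RNA per cell cannot be told apart.

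CRY1 took either a low or a high level in every group. On SPs it stood at 22.5 and 22.8 CPM in samples 1 and 3 and at 206, 237, and 406 CPM in samples 2, 4, and 5. At LP day 1 it was low in samples 1 and 6 (28.3 and 34.5 CPM) and between 209 and 282 CPM in the other samples. At LP day 7 samples 1, 3, and 5 had 23.8, 23.2, and 23.2 CPM, and samples 2, 4, and 6 had 302, 298, and 229 CPM. The corresponding LP day 28 values were 29.3, 28.7, and 16.9 CPM in odd numbers and 242, 138, and 156 CPM in even numbers. Low CRY1 thus went with odd numbers at LP days 7 and 28, whereas SP sample 5 and LP day 1 samples 3 and 5 were odd with high CRY1 and LP day 1 sample 6 was even with low CRY1. SE stands for standard error below. Levels are TMM-normalized CPM and are compared within a gene only, because no gene lengths were used.

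**Figure D1:**
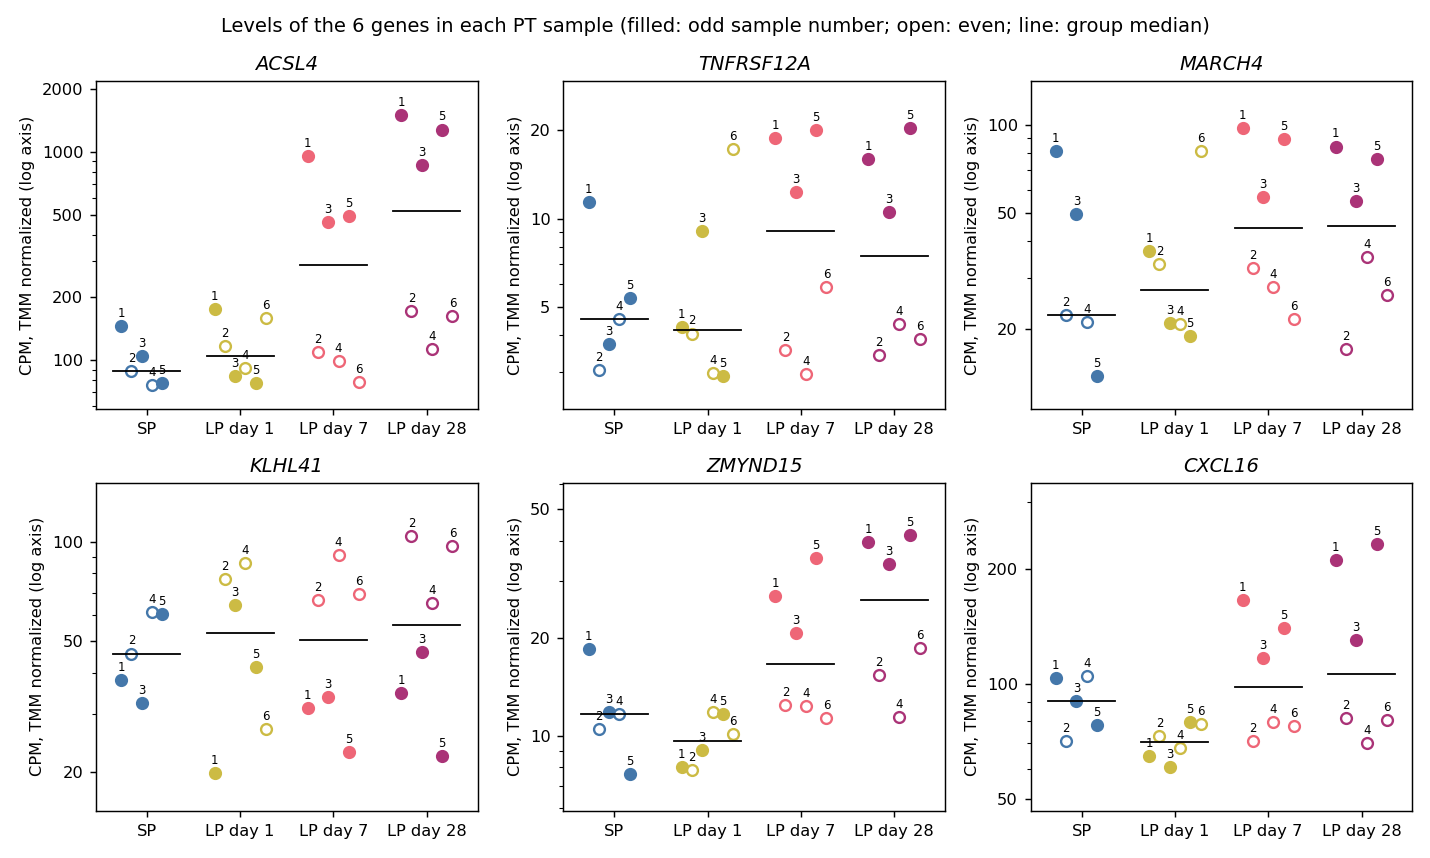
Level of each of the 6 genes (TMM-normalized CPM, log axis) in the 5 SP samples and the 6 samples of each LP day, with sample numbers beside the points. Filled points are odd and open points even sample numbers, and the line is the group median. At LP days 7 and 28 the filled and open points do not overlap in any panel, whereas on SPs and at LP day 1 they mix.

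ACSL4 had the widest split. At LP day 7 it stood at 952, 462, and 489 CPM in samples 1, 3, and 5 and at 109, 99.3, and 78.2 CPM in samples 2, 4, and 6. By LP day 28 the odd numbers reached 1509, 867, and 1280 CPM, and the even numbers 171, 113, and 163 CPM. The odd-numbered mean was 6.64 times the even-numbered mean at LP day 7 and 8.16 times at LP day 28. SP samples 1 to 5 had 146, 88.7, 105, 75.5, and 77.3 CPM, a range that held the even-numbered samples of LP day 7 and LP day 28 sample 4, whereas LP day 28 samples 2 and 6 lay above it. At LP day 1 samples 1 and 6 had 175 and 159 CPM, and samples 2 to 5 had 117, 84.0, 92.0, and 77.9 CPM. ACSL4 was thus highest in the samples with low CRY1 in all 4 groups, at LP days 7 and 28 by the choice of the gene.

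TNFRSF12A, the TWEAK receptor, was a low-count gene with the same direction. At LP day 7 samples 1, 3, and 5 had 18.9, 12.3, and 20.1 CPM, and samples 2, 4, and 6 had 3.56, 2.95, and 5.83 CPM. After 28 days they had 15.9, 10.5, and 20.3 CPM against 3.42, 4.37, and 3.90 CPM. The even-numbered values rest on 10 to 17 counts per sample, and odd-numbered ones on 37 to 79. On SPs samples 1 to 5 had 11.4, 3.05, 3.75, 4.54, and 5.36 CPM, and LP day 1 ran from 2.91 to 17.2 CPM with a median of 4.17 CPM. The high values outside LP days 7 and 28 were those of SP sample 1 and LP day 1 sample 6, both with low CRY1, and of LP day 1 sample 3, with high CRY1.

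MARCH4, the membrane ubiquitin ligase, also split, but with less change in its top level. Its odd-numbered mean was 2.97 times the even-numbered mean at LP day 7 and 2.75 times at LP day 28. At LP day 7 it had 97.4, 56.5, and 89.6 CPM in samples 1, 3, and 5 and 32.3, 27.9, and 21.6 CPM in samples 2, 4, and 6. At LP day 28 the odd numbers had 84.3, 54.9, and 76.5 CPM and the even numbers 17.1, 35.3, and 26.1 CPM. SP samples 1 and 3 already held 81.6 and 49.6 CPM, whereas SP samples 2, 4, and 5 held 22.3, 21.1, and 13.8 CPM. At LP day 1 sample 6 stood at 81.6 CPM and sample 1 at 37.1 CPM, above the 18.9 to 33.4 CPM of the other 4 samples. MARCH4 was thus highest in the samples with low CRY1 in all 4 groups. At LP days 7 and 28 the choice of the genes requires this, since low CRY1 and odd numbers coincide there. Only LP day 1 sample 6 had low CRY1 with an even number.

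KLHL41, the cullin-3 adaptor, went the other way. At LP day 7 it had 31.3, 33.7, and 22.9 CPM in samples 1, 3, and 5 and 66.5, 91.0, and 69.3 CPM in samples 2, 4, and 6. After 28 days it had 34.7, 46.1, and 22.3 CPM against 104, 65.3, and 97.1 CPM. The even-numbered mean was 2.58 times the odd-numbered mean at LP day 7 and 2.59 times at LP day 28. On SPs the lowest values were 37.9 and 32.3 CPM in samples 1 and 3, and samples 2, 4, and 5 had 45.7, 61.3, and 60.4 CPM. At LP day 1 samples 1 and 6 were lowest, with 19.8 and 26.9 CPM, and the other samples lay between 41.5 and 86.0 CPM. KLHL41 was therefore lowest in the samples with low CRY1 in all 4 groups, as ACSL4 and MARCH4 were highest in them. At LP days 7 and 28 this too follows from the choice of the gene.

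ZMYND15 and CXCL16 split at LP days 7 and 28 but not in step with CRY1 at LP day 1. ZMYND15, the germ-cell repressor, had 27.0, 20.8, and 35.4 CPM in LP day 7 samples 1, 3, and 5 and 12.5, 12.4, and 11.3 CPM in samples 2, 4, and 6. By LP day 28 it had 39.7, 33.8, and 41.6 CPM against 15.4, 11.4, and 18.7 CPM. SP samples 1 to 5 had 18.5, 10.5, 11.8, 11.7, and 7.62 CPM, and LP day 1 ran from 7.81 to 11.9 CPM with a median of 9.60 CPM, where samples 1 and 6, with low CRY1, had 8.01 and 10.1 CPM and lay within the range of the others.

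CXCL16, the chemokine, had 166, 117, and 140 CPM in LP day 7 samples 1, 3, and 5 and 70.9, 79.7, and 77.5 CPM in samples 2, 4, and 6. At LP day 28 the odd numbers had 212, 131, and 232 CPM and the even numbers 81.5, 70.0, and 80.7 CPM. The odd-numbered mean was 1.85 times the even-numbered mean at LP day 7 and 2.47 times at LP day 28. On SPs samples 1 to 5 had 104, 71.1, 90.3, 105, and 78.2 CPM, and at LP day 1 the range was narrow, from 60.6 to 79.4 CPM with a median of 70.7 CPM. LP day 1 samples 1 and 6 had 64.9 and 78.6 CPM, within that range.

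ZMYND15 and CXCL16 may share reads. In the RefSeq annotation of a newer sheep assembly, not the Oar_v3.1 build of these counts, they are neighbours whose annotated spans overlap, and CXCL16 also overlaps MED11. Whether the counting used strand is not given in the sources used here, so reads from the shared stretch cannot be told apart and each gene's value is uncertain to that degree. ACSL4, TNFRSF12A, and KLHL41 overlap no annotated gene there, and the span of MARCH4 holds a transfer RNA gene.

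Across the 12 samples of LP days 7 and 28 together, the odd-minus-even difference on the log2 scale was 2.88 for ACSL4, 2.02 for TNFRSF12A, 1.51 for MARCH4, 1.27 for ZMYND15, 1.09 for CXCL16, and -1.36 for KLHL41, and it was -3.18 for CRY1. By this contrast 152 of 14890 genes (1.02%) had a false discovery rate (FDR) under 0.05 in edgeR's quasi-likelihood test, with 107 (0.719%) higher in odd numbers and 45 (0.302%) higher in even numbers. CRY1 ranked 1 and the 6 genes between 2 and 11 by FDR, which is how they were chosen. At the threshold itself, COL11A1 lay just inside with a log2 difference of -0.50, and BHLHB9 just outside with 0.56. ACSL4, TNFRSF12A, MARCH4, ZMYND15, and CXCL16 each had their lowest odd-numbered value in sample 3 at both days, although for ACSL4 at LP day 7 sample 3 (462 CPM) and sample 5 (489 CPM) lay close. KLHL41 had its highest odd-numbered value in sample 3 at both days. Sample 3 was the lowest of samples 1, 3, and 5 at both days in 11.6% of all genes tested and in 47.7% of the 107 genes called higher in odd numbers.

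Whether the split differed between LP days 7 and 28 was fitted over all genes as an interaction. The 6 genes were chosen from the same 12 samples for a split in the same direction on both days, so for them the interaction is a description that the choice itself keeps small. Only 1 of 14890 genes (0.00672%) passed FDR 0.05 by edgeR's quasi-likelihood test, with 1014 genes at an unadjusted p under 0.05. The ACSL4 split was larger at LP day 28 by 0.31 on the log2 scale (SE 0.35, 95% interval -0.51 to 1.13), and that of CXCL16 by 0.42 (SE 0.25, 95% interval -0.16 to 1.00). For TNFRSF12A, MARCH4, KLHL41, and ZMYND15 the difference in split lay between -0.11 and 0.14. Intervals of this width do not show that the split was alike at both days.

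The samples of SPs and LP day 1 were not used to choose the genes, and the contrast of odd with even numbers was tested there, with the group as a term. No gene of 14920 passed FDR 0.05 (0%) in edgeR's quasi-likelihood test, 766 had an unadjusted p under 0.05, and DESeq2 called 2. ACSL4 differed by 0.10 on the log2 scale for odd against even numbers (SE 0.23, 95% interval -0.43 to 0.62). KLHL41 differed by -0.40 (SE 0.30, 95% interval -1.09 to 0.28), the largest of the 6, and the others lay between -0.039 and 0.12. The sign of the small differences in ACSL4, TNFRSF12A, MARCH4, and CXCL16 depended on the scaling or covariates. With LP day 1 samples 3 and 4 summed, again no gene passed, and ACSL4 differed by 0.062 and KLHL41 by -0.29. The summed pair was counted as odd, under the number of sample 3, although sample 4 is even. In the main test these very alike samples stood on opposite sides. Whether that narrows the contrast was not tested.

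In SP and LP day 1 samples the 6 genes were then set against CRY1 rather than the number. The slope of a gene's log2 CPM on log2 CRY1 within the groups, over these 11 samples, was -0.48 for MARCH4 (SE 0.07), 0.31 for KLHL41 (SE 0.07), and -0.23 for ACSL4 (SE 0.04). Slopes of the same sign and at least as far from 0 were found in 0.114%, 0.617%, and 1.98% of 14919 genes, respectively. Genes with a slope of the opposite sign were not counted in these shares. TNFRSF12A had a slope of -0.24 with a wider SE of 0.13, and 1.72% of genes lay at least as far out on the same side. ZMYND15 had -0.11 (SE 0.08) and CXCL16 -0.040 (SE 0.04), with 11.3% and 30.2% of genes at least as far out on the same side. These are descriptions, because CRY1 and the members were picked together and low and high CRY1 form separate clusters.

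**Figure D2:**
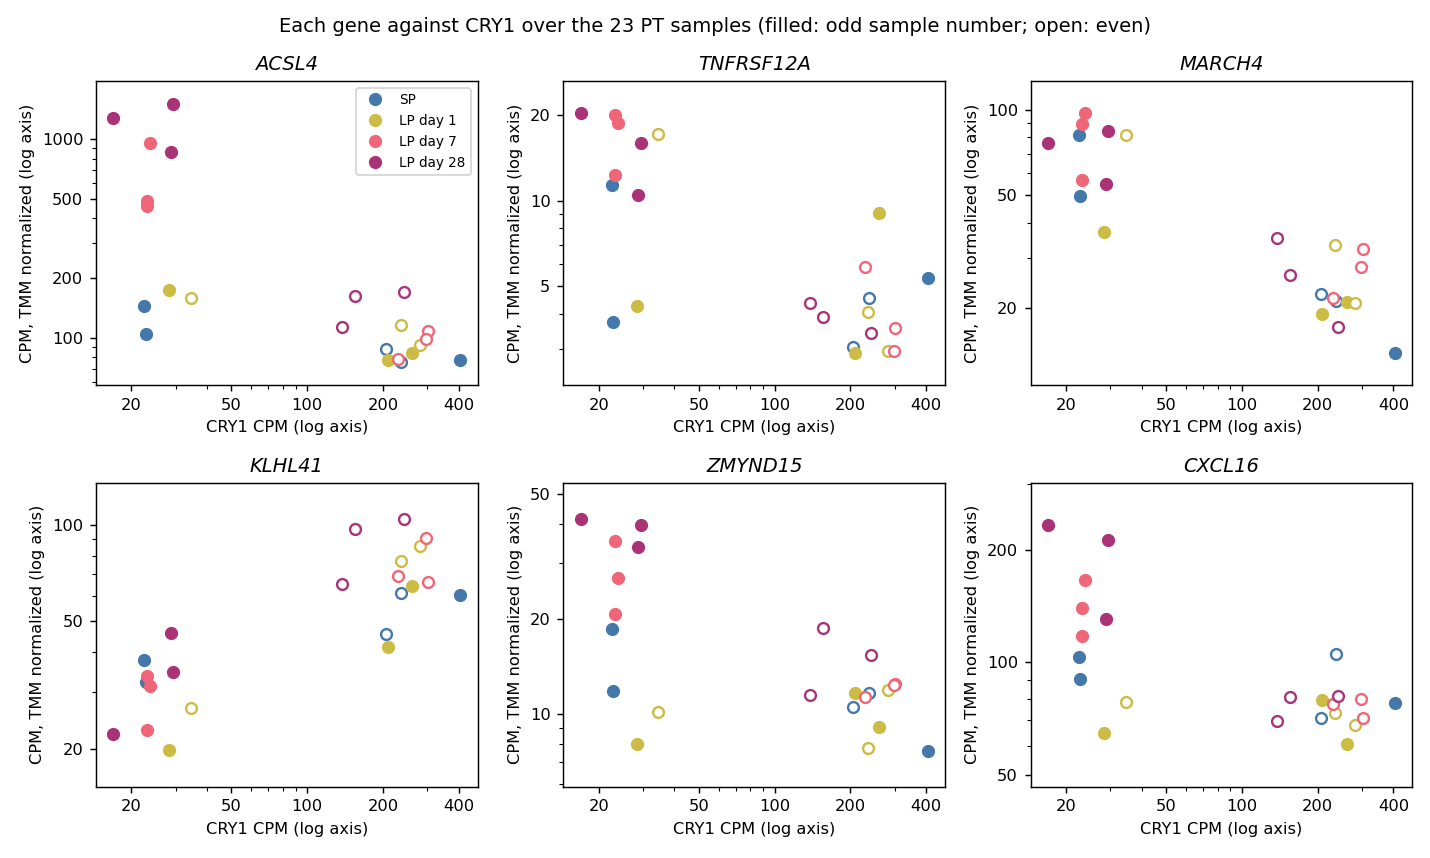
Level of each gene against CRY1 in the 23 samples (both TMM-normalized CPM, log axes), with colour for the group, filled points for odd and open points for even sample numbers. CRY1 lies between 16.9 and 34.5 CPM or between 138 and 406 CPM, ACSL4, MARCH4, and KLHL41 separate along this division in every group, and ACSL4 spreads from 105 to 1509 CPM among the samples with low CRY1.

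Over the 12 samples of LP days 7 and 28 the slopes on CRY1 were -0.85 for ACSL4 (SE 0.08), -0.64 for TNFRSF12A (SE 0.07), -0.47 for MARCH4 (SE 0.05), 0.44 for KLHL41 (SE 0.04), -0.38 for ZMYND15 (SE 0.05), and -0.33 for CXCL16 (SE 0.04). In these samples low CRY1 and an odd number are the same thing and cannot be told apart. MARCH4 had nearly the same slope as on SPs and LP day 1, and KLHL41 had 0.44 against 0.31. ACSL4, ZMYND15, and CXCL16 had steeper slopes at LP days 7 and 28, and this difference between the sets was not tested. All 12 slopes kept their sign with each sample left out in turn, but on SPs and LP day 1 the smaller ones moved with single samples. The TNFRSF12A slope there became -0.12 without SP sample 1 and -0.11 without LP day 1 sample 6, and ran to -0.32 at the other end. That of ZMYND15 became -0.030 without SP sample 1 and -0.056 without SP sample 5. For CXCL16 it was -0.018, -0.026, or -0.022 without SP sample 1, 2, or 5 and -0.063 without LP day 1 sample 1. ACSL4 stayed between -0.26 and -0.21 and MARCH4 between -0.55 and -0.42.

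**Figure D3:**
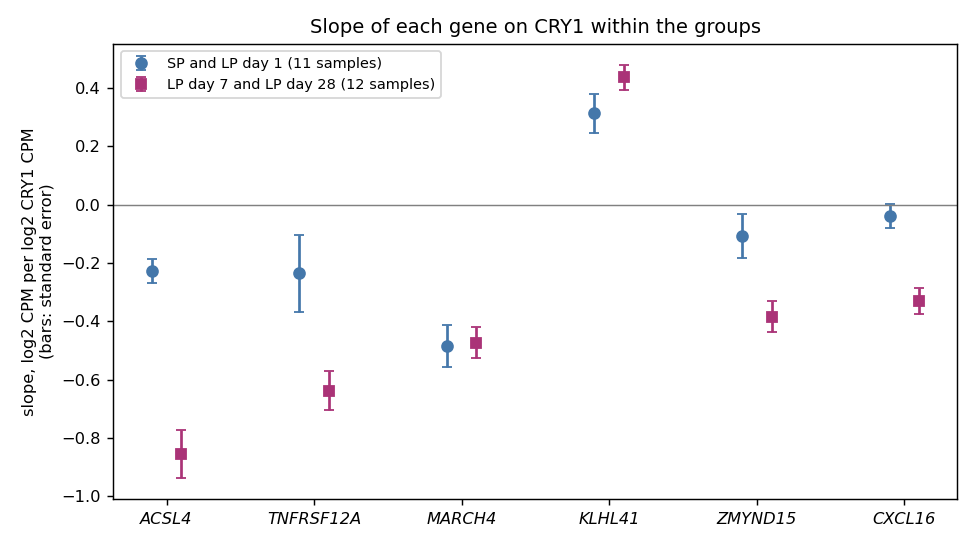
Slope of each gene's log2 CPM on log2 CRY1 CPM within the groups, with standard errors as bars, for the 11 samples of SPs and LP day 1 and the 12 samples of LP days 7 and 28. MARCH4 and KLHL41 have similar slopes in both sets (-0.48 and -0.47, 0.31 and 0.44), and ACSL4 runs from -0.23 to -0.85.

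Of the 6 genes, only ACSL4 was called in edgeR's main test of LP samples against SPs, and only at LP day 28. Its mean was 98.5 ± 29.0 CPM on SPs (SD, n = 5). On LPs it averaged 117 ± 40.9 CPM after 1 day, 365 ± 343 CPM after 7 days, and 684 ± 621 CPM after 28 days (SD, n = 6 per day). From SPs to LP day 28 ACSL4 rose by 2.79 on the log2 scale (SE 0.58, FDR 0.0331 in edgeR's quasi-likelihood test), against a background of 0.67% of 14929 genes called. The groups overlapped, since LP day 28 sample 4 with 113 CPM lay below SP sample 1 with 146 CPM. The call was lost in 7 of 11 fits that left out a sample, namely SP samples 2, 3, 4, or 5 or LP day 28 samples 1, 3, or 5, with FDR values over all 11 fits from 0.00907 to 0.0994. At LP day 7 the log2 fold change of 1.88 (SE 0.55, FDR 0.134) did not pass, where 0.266% of 15030 genes did. The comparisons with LP days 7 and 28 share the SP samples, and they contain the LP samples by which the gene was chosen, so they are not independent of that choice.

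Taken by number, the larger ACSL4 values of these comparisons came from odd-numbered samples, as the choice of the gene requires. The values by number are therefore given as a description. Within odd numbers alone, the log2 fold change from SPs was 2.52 at LP day 7 (SE 0.30) and 3.47 at LP day 28 (SE 0.25) over 3 against 3 samples. Within even numbers alone it was 0.22 at LP day 7 (SE 0.16) and 0.86 at LP day 28 (SE 0.19), over 2 against 3 samples. With CRY1 as a term in the fit of all samples, the value at LP day 28 was 1.90 (SE 0.46, FDR 0.0641). In the samples with low CRY1, which on SPs are samples 1 and 3 and at LP day 1 samples 1 and 6, ACSL4 stood at 146 and 105 CPM and at 175 and 159 CPM, below the lowest value of such samples at LP day 7, 462 CPM, and at LP day 28, 867 CPM.

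**Figure D4:**
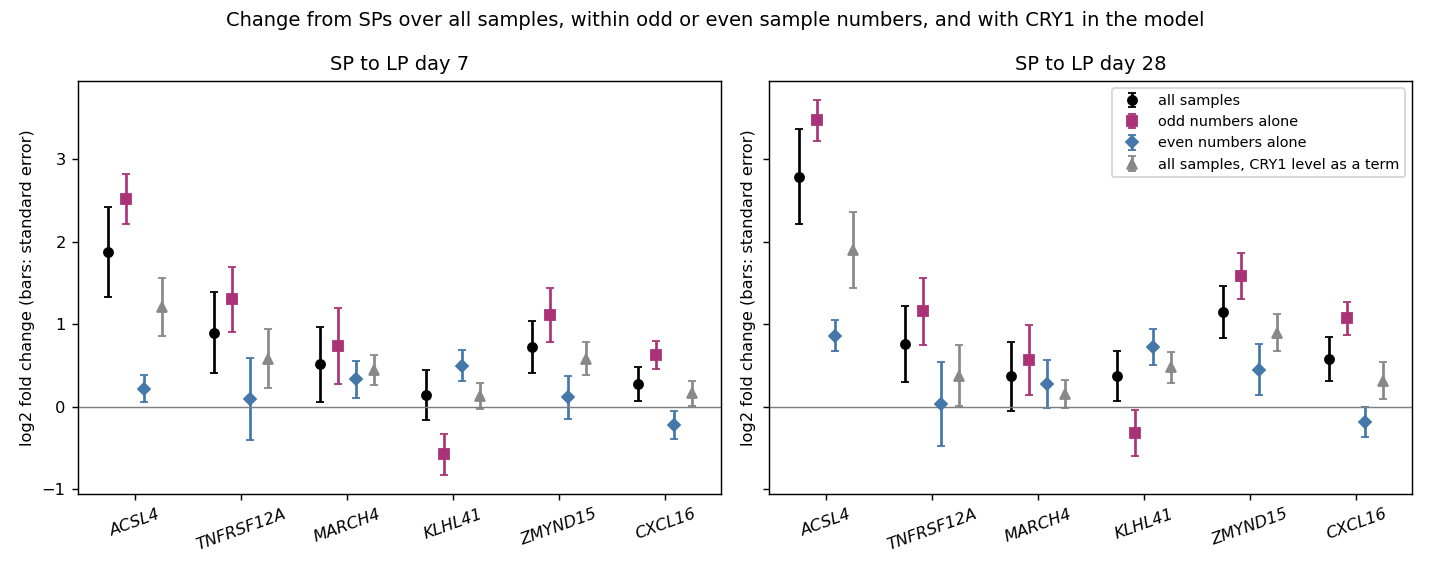
Log2 fold change from SPs to LP day 7 and to LP day 28 for each gene, with standard errors as bars, over all samples, over odd or even sample numbers alone, and over all samples with CRY1 as a term. ACSL4 has 3.47 in odd and 0.86 in even numbers at LP day 28, and KLHL41 and CXCL16 have opposite signs in odd and even numbers. The odd-even gap at each LP day follows from how the genes were chosen, and the signs depend also on the SP levels.

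None of the other 5 genes passed FDR 0.05 from SPs to any LP day over all samples. ZMYND15 came nearest, with a mean of 12.03 ± 4.01 CPM on SPs (SD, n = 5) and 26.8 ± 13.2 CPM after 28 days of LPs (SD, n = 6) and a log2 fold change of 1.14 with an SE of 0.32 (FDR 0.111). It passed with DESeq2 (FDR 0.0260), with odd or even number as a term in edgeR (FDR 0.0426), and without LP day 28 sample 4 (edgeR FDR 0.0487). CXCL16 differed by 0.58 at LP day 28 (SE 0.27, FDR 0.353), with 1.07 in odd and -0.19 in even numbers. TNFRSF12A differed by 0.76 (SE 0.46, FDR 0.497), and MARCH4 and KLHL41 each by 0.37 (SE 0.42 and 0.30). For KLHL41 the value was -0.32 in odd and 0.73 in even numbers. The values by number follow the split for which both genes were chosen, and their signs depend also on the SP levels.

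From SPs to LP day 1, and between successive LP days, none of the 6 genes passed FDR 0.05 in edgeR's test over all samples. With the sample number as a block ACSL4 passed between LP days 7 and 28 (0.82, edgeR FDR 0.0290), although the labels do not say that numbers pair samples. It also passed between LP days 1 and 7 in odd numbers alone (2.49, edgeR FDR 0.0322), the numbers for whose high level it was chosen. From SPs to LP day 1 no gene of 14920 passed (0%) in edgeR's test, with 497 at an unadjusted p under 0.05 and 2 by DESeq2. CXCL16 was lower by a log2 fold change of -0.34 there (SE 0.13, unadjusted p 0.0201 in edgeR, FDR 1.00), or -0.33 with LP day 1 samples 3 and 4 summed. Between LP days 1 and 7, where 0.0201% of 14897 genes passed, ZMYND15 differed by 1.08 (SE 0.29, FDR 0.585), ACSL4 by 1.61 (SE 0.50, FDR 0.763), and CXCL16 by 0.61 (SE 0.19, FDR 0.767) in the same edgeR test. With those samples summed the values were 1.09, 1.57, and 0.60. Between LP days 7 and 28, where 0.00672% of 14890 genes passed, the 6 genes differed by -0.14 (MARCH4) to 0.92 (ACSL4).

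Among the 6 genes, deviations from the group means over the 23 samples ran together except for KLHL41. The highest Pearson correlation was 0.91 between ACSL4 and CXCL16, followed by 0.89 between ZMYND15 and CXCL16, the pair with overlapping spans. KLHL41 correlated with the others by -0.79 (MARCH4) to -0.65 (ZMYND15). These values describe the same libraries and carry the odd-even split by which the genes were chosen.

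Of 869 genes with a symbol and a mean over 5 CPM, the one most like ACSL4 was EYA3 (r = 0.93), a transcriptional coactivator of the long-day response in the PT, followed by the zinc transporter SLC39A6 (r = 0.92). CXCL16 was most like ACSL4, ZMYND15, and EYA3 (r = 0.91, 0.89, and 0.87), and ZMYND15 was most like CXCL16, RAB11FIP3, and ACSL4 (r = 0.89, 0.86, and 0.85). TNFRSF12A and MARCH4 shared NAB2, a corepressor of EGR factors, among their nearest genes, with r = 0.89 and 0.87. TNFRSF12A was further like ETV5 and ATP2C2 (r = 0.85 each), and MARCH4 like CELF3 and MAPK8IP1 (r = 0.87 each). KLHL41 was most like CRY1 (r = 0.89), the thyrotropin receptor TSHR (r = 0.89), and the dopamine receptor DRD1 (r = 0.78). Each r is over 23 samples, has the group means removed, and serves only to rank likeness, since CRY1 and the split genes fall into separate low and high clusters.

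The pathways of the 6 genes could be followed only where a symbol was paired with an identifier, through tables of genes that the study had picked on such samples. Of 15 acyl-CoA and arachidonic acid genes only ALOX15 was paired, of 10 other MARCH genes only MARCH3, and of 12 partners and muscle genes around KLHL41 only KLHL40, TNNT1, and TTN. None of these 5 passed FDR 0.05 in any comparison in edgeR's quasi-likelihood test. KLHL40, the closest relative of KLHL41, had a log2 fold change of -1.91 from SPs to LP day 28 (SE 0.47, FDR 0.0697), and differed by -0.39 between odd and even numbers at LP days 7 and 28 (SE 0.50). No gene of the lists for TWEAK signalling (15 genes), ZMYND15 partners (9 genes), or the CXCL16 axis (7 genes) was paired, so none of these was analysed here. Of 4 paired cAMP and immediate early genes among 12, FOSL2 was lower in odd numbers at LP days 7 and 28 by -1.13 (SE 0.21, FDR 0.0106).

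Of 18 core clock genes 11 were paired. In the odd against even contrast at LP days 7 and 28, DBP, NR1D1, TEF, BHLHE41, and CIART passed FDR 0.05 with higher levels in odd numbers, like ACSL4, and CRY1 with lower ones, like KLHL41. The median difference of all 11 paired genes was 0.51 on the log2 scale, where all genes tested had a median of about 0. Over all 14890 genes tested, 1.02% passed in this contrast. The 11 were paired only because the study's own tables held them. On SPs and at LP day 1 none of the 11 passed in the same contrast, with a median of 0.23. From SPs to LP day 28 ARNTL fell by 0.86 (SE 0.19, FDR 0.0481), and the 10 others did not pass.

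Some markers of cell types also divided by number at LP days 7 and 28, and their part in the levels of the 6 genes was not tested. Within the thyrotroph list EYA3 and MTNR1A were higher in odd numbers (log2 differences of 3.36 and 3.30, SE 0.34 and 0.40, both past FDR 0.05 in edgeR's test), and the other 3 did not pass. TSHB went the other way, by -0.52 (SE 0.22, FDR 0.407 in the same test), and CGA and CHGA differed by -0.035 and 0.0050. At LP day 7 TSHB had 452, 380, and 289 CPM in samples 1, 3, and 5 and 684, 1151, and 666 CPM in samples 2, 4, and 6. Its values overlapped at LP day 28. EYA3 at LP day 7 had 969, 381, and 332 CPM in samples 1, 3, and 5 and 30.9, 39.2, and 41.2 CPM in samples 2, 4, and 6. MTNR1A had 37.1, 24.1, and 41.5 CPM against 1.48, 0.537, and 2.06 CPM there, where the 0.537 CPM of sample 4 lay below the floor of 3 counts. At LP day 28 EYA3 had 407, 123, and 471 CPM against 37.6, 58.5, and 46.8 CPM. MTNR1A had 27.5, 14.5, and 18.9 CPM against 4.79, 1.35, and 7.02 CPM on that day. Its split differed between the days by -2.42 (SE 0.69, FDR 0.552 in edgeR's test). The summed level of the 5 thyrotroph markers lay between 7975 and 11223 CPM in odd and between 8972 and 10296 CPM in even numbers at LP day 7. At LP day 28 the ranges were 10561 to 13807 CPM and 10979 to 11281 CPM. CGA made up most of each sum, with 9125 CPM in LP day 7 sample 3, and EYA3 and MTNR1A little. The study also places TSHB protein and CHGA in pars distalis cells. The sums are therefore no measure of PT thyrotroph content, which was not tested. The 6 pars distalis genes summed to 46515 to 113215 CPM in odd and 75356 to 176716 CPM in even numbers at LP day 7 and to 129986 to 272700 and 74590 to 252933 CPM at LP day 28, and none passed. Of 7 leukocyte markers only PTPRC was paired. It stood at 16.8 to 22.6 CPM in odd and 27.8 to 68.5 CPM in even numbers at LP day 7. At LP day 28 the ranges were 21.3 to 87.6 and 30.5 to 46.4 CPM. Over both days PTPRC differed by -0.43 (SE 0.35) and did not pass FDR 0.05. None of the 3 folliculostellate, 2 tanycyte and neural, or 3 fibroblast markers that were paired passed either. No skeletal muscle marker of 6 and no endothelial marker of 5 was paired, so the part of such cells in the levels of KLHL41 was not tested.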

How the data were processed

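PT RNA was sequenced in 23 samples: 5 on SPs and 6 at each of LP days 1, 7, and 28. The authors deposited whole-number counts of reads per Ensembl sheep gene, 1 table per sample. Per the submitters' processing notes, Bowtie and HTSeq were used with the Oar_v3.1 build, whereas the file headers have the form written by featureCounts for TopHat alignments, so which program made the counts is not settled. Versions and the strand setting are not given in the sources used here. Symbols came from the study's supplementary tables (1259 genes), and gene neighbours from RefSeq (ARS-UI_Ramb_v3.0).

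Groups and sample numbers were taken from the titles. The members, lists, and tests were chosen with earlier results of these data known. The analysis used edgeR 4.0.16 (R 4.3.3) with TMM normalization and kept genes above 1 CPM in as many or more samples than the smaller group has. Its quasi-likelihood test was run over all genes kept, with Benjamini-Hochberg FDR under 0.05. All 6 genes passed the filter in every comparison. Standard errors (SE) were taken as the size of the log2 fold change over the root of the F statistic, and 95% intervals from these and the residual degrees of freedom. Single-sample CPM were normalized over all 23 samples, and log2 CPM used a prior count of 2. Slopes on CRY1 were fitted in edgeR with the group as a term. The named genes are the members, CRY1, the 3 genes with a symbol most like each member, and list genes past FDR 0.05. COL11A1, BHLHB9, KLHL40, PTPRC, TSHB, CGA, CHGA, and the paired list genes named beside a count were named outside this rule.

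Depth ran from 307952 to 4413929 counts, and 3 counts were taken as the lowest detectable level, for counting error only, because no molecular identifiers mark single molecules. In simulated data for SPs against LP day 28 (14929 genes, 200 changed), the test recovered 66% of genes changed by 1 on the log2 scale and 98% of those changed by 3, and 5.11% of its calls were unchanged genes. For the interaction it recovered only 16% and 86%, and 5.79% of its calls were unchanged genes. For odd against even numbers on SPs and LP day 1 it recovered 64% and 94%, with 2.37% unchanged. The simulated counts were drawn independently for each gene, without the low and high clusters that CRY1 and the split genes share. The changed genes were picked at random, so these shares need not hold for the members. In that last contrast TNFRSF12A and MARCH4 had SEs of 0.50 and 0.47 in the real data. Alternatives were DESeq2 1.42.0, other scalings and filters, robust estimation, all 4 groups in 1 fit, SP samples 2, 3, and 5 alone, the sample number as a block, odd or even number or CRY1 as a term, odd or even numbers alone, LP day 1 samples 3 and 4 summed, and each sample left out. The library set (samples 1 to 3 or 4 to 6, from the headers) was added as a term after seeing the data. No sequences are shown, because no genome of the counts' build was used here.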

Additional observations from a re-analysis of the deposited data

Results flagged for a closer look

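Among the 6 genes and 4 groups, 2 of the 24 sets of samples held a value far from the others by Dixon's test at the 95% level, which chance alone does in about 1 set of 20. TNFRSF12A in SP sample 1 stood at 11.4 CPM, where the gap to the next SP sample was 0.72 of the group's range. MARCH4 in LP day 1 sample 6 stood at 81.6 CPM, where the gap was 0.71 of the range. Both samples had low CRY1.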

How the results depend on the processing

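Under other settings, 506 values of single genes kept their direction and their side of the FDR threshold, 28 turned direction, 7 gained a call, and 5 lost it, counted without the fits that leave out a sample. The 5 losses are all ACSL4 from SPs to LP day 28, with an FDR of 0.169 under robust estimation, 0.108 over SP samples 2, 3, and 5, 0.0545 with the replicate block, 0.0641 with CRY1, and 0.0568 in even numbers. ACSL4 gained a call at LP day 7 with odd or even number as a term (FDR 0.0484) and in odd numbers (FDR 0.0103), and from LP day 1 to 7 in odd numbers (FDR 0.0322). The cause was not tested.

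The labels do not say whether sample numbers pair the samples. Deviations of same-numbered samples correlated by -0.239 to 0.366 over 33 pairs, 8 of them above 0.1. Differently numbered samples were not compared, so pairing by number was not tested. With the number as a replicate block, 178 genes were called at LP day 7, 41 at LP day 28, and 6 between LP days 7 and 28, ACSL4 passed at LP day 7 (FDR 0.0445) and between LP days 7 and 28 (FDR 0.0290), and the sign turned for TNFRSF12A at LP day 1 (-0.22) and for KLHL41 at LP day 7 against SPs (-0.076) and LP day 1 (-0.021).

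With DESeq2 the numbers of genes called were 2 (SPs against LP day 1), 357 (LP day 7), 346 (LP day 28), 14 (LP day 1 against 7), 36 (LP day 7 against 28), 2 (odd against even on SPs and LP day 1), 264 (the same at LP days 7 and 28), and 13 (interaction). Calls from SPs to LP day 7 were 24 by library size, 96 with robust estimation, 6 over SP samples 2, 3, and 5, 334 with odd or even number as a term, and 106 with CRY1. At LP day 28 they were 48 over those SP samples, 154 with odd or even number, and 28 in odd numbers alone. Even numbers alone gave 2 at LP day 1. Between LP days 1 and 7 there were 6 with CRY1, 8 in odd and 6 in even numbers, and 1 with the library set or with samples 3 and 4 summed. Between LP days 7 and 28 there were 6 by library size, 8 without filter, 4 with robust estimation or all groups, 10 with odd or even number, 9 with CRY1, 5 in odd, and 3 in even numbers. Without filter, odd against even gave 1 on SPs and LP day 1, and the interaction 22.

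Direction turned from SPs to LP day 1 for MARCH4 over SP samples 2, 3, and 5 (0.33), with CRY1 (0.19), in even numbers (1.19), and with the library set (0.053), for KLHL41 with CRY1 (-0.089), in odd numbers (-0.064), and with samples 3 and 4 summed (-0.028), and for TNFRSF12A in odd numbers (-0.34). KLHL41 turned at LP day 7 with odd or even number (-0.086) and in odd numbers (-0.58), in odd numbers at LP day 28 (-0.32), and from LP day 1 to 7 with odd or even number (-0.098) and in odd numbers (-0.52). In even numbers CXCL16 turned at LP day 7 (-0.22) and LP day 28 (-0.19), and ACSL4 (-0.41), TNFRSF12A (-1.17), and MARCH4 (-0.87) from LP day 1 to 7. Odd against even on SPs and LP day 1 turned by library size for TNFRSF12A (0.032), MARCH4 (0.043), and CXCL16 (0.026), by DESeq2 for MARCH4 (0.0051), and with the library set for ACSL4 (-0.019) and TNFRSF12A (0.044), and the interaction by library size for KLHL41 (-0.068).

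With each sample left out, calls ran from 0 to 4 (SPs against LP day 1), 7 to 113 (LP day 7), 41 to 110 (LP day 28), 1 to 6 (LP days 1 and 7), 1 to 5 (LP days 7 and 28), 0 to 1 and 112 to 159 (odd against even, earlier and later groups), and 0 to 2 (interaction). Fits without LP day 7 sample 6 gave the 113 and those without SP sample 4 the 7. Values that turned direction in some of these fits were, from SPs to LP day 1, TNFRSF12A (-0.20 to 0.73), MARCH4 (-0.49 to 0.43), and KLHL41 (-0.14 to 0.26), from SPs to LP day 7 KLHL41 (-0.10 to 0.29), from LP day 1 to 7 KLHL41 (-0.16 to 0.28), and from LP day 7 to 28 TNFRSF12A (-0.42 to 0.16) and MARCH4 (-0.38 to 0.10). Odd against even on SPs and LP day 1 did so for ACSL4 (-0.091 to 0.26), TNFRSF12A (-0.34 to 0.71), MARCH4 (-0.33 to 0.53), ZMYND15 (-0.061 to 0.24), and CXCL16 (-0.15 to 0.041), and the interaction for TNFRSF12A (-0.41 to 0.12), MARCH4 (-0.34 to 0.18), KLHL41 (-0.22 to 0.24), and ZMYND15 (-0.028 to 0.37). None of these had passed FDR 0.05. Slopes on CRY1 in SPs and LP day 1 ran from -0.16 to -0.030 for ZMYND15, from -0.32 to -0.11 for TNFRSF12A, and from -0.063 to -0.018 for CXCL16.

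Depth limits TNFRSF12A, ZMYND15, and MARCH4 most, above all in LP day 1 sample 4, where 1 to 7 counts stand behind each. Odd numbers, low CRY1, and whatever else those samples share cannot be told apart at LP days 7 and 28. Where even or odd numbers alone were fitted, groups held 2 or 3 samples. The library set as a term was chosen after seeing the data and changed no call of the 6 genes.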
